A study of Mus musculus with 24 samples.

Results

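The genotype by feeding interaction asks, at each stretch of liver chromatin, whether losing the transcription factor GATA4 changed the H3K27ac signal by a different amount in refed than in fasted mice. It was computed as the knockout minus control difference in refed livers minus the knockout minus control difference in fasted livers, on a log2 scale. All 63686 regions of the deposited table entered, so the comparison covers every region and all 12 H3K27ac chromatin immunoprecipitation libraries. A positive value means that the knockout-to-control ratio was higher after refeeding than after fasting. Equally, it means that the refed-to-fasted ratio was higher in knockout than in control livers.

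H3K27ac, acetylation of lysine 27 of histone H3, marks active promoters and enhancers. GATA4 is a zinc-finger factor that binds GATA motifs and, in liver, is made by hepatocytes and by sinusoidal endothelial cells. Refeeding with sugar raises insulin and engages SREBP1c and ChREBP, which drive glucose use and fat synthesis, whereas fasting engages glucagon, glucocorticoid and PPARα signals, which drive glucose output and fat burning.

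Every mouse was a C57BL/6J male carrying floxed Gata4 alleles (Gata4 fl/fl), given an adeno-associated virus (AAV8) at 8 weeks of age and killed 7 days later, at 9 weeks. The 4 groups held 3 knockout refed, 3 control refed, 3 knockout fasted and 3 control fasted mice. Knockout (LKO) mice received AAV8 carrying Cre under the hepatocyte-directed Tbg promoter, so that endothelial and other cells kept their Gata4 alleles, and controls received AAV8 without Cre. Refed mice fasted for 12 h in the day and then ate a diet of 69% sucrose and 10% fat for 12 h overnight, while fasted mice went without food for the 12 h of the night. All mice were killed between 9 and 10 in the morning. The clock hours of the fast therefore differed between the feeding states. The labels give the 3 mice of each group 1 shared number, so a cage or litter in common cannot be told apart from the group.

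The libraries held 22.3 to 23.6 M reads in the regions in knockout refed livers, 27.4 to 30.4 M in control refed livers, 23.1 to 25.3 M in knockout fasted livers and 22.2 to 27.8 M in control fasted livers. The deposited values, called normalized reads below, summed to 1 common total for every library, and the median region had a mean of 90.6 normalized reads. The reads above were recovered from these values as whole multiples of each library's smallest step. Whether input reads had been subtracted first is not given in the sources used here, so they may be counts after subtraction. Nothing in the labels tells whether mice were processed in batches. A bulk signal cannot tell apart fewer acetylated cells and less acetylation per cell. Values are given by mouse in the order of the labels' accession. Errors of differences are standard errors from limma with 3 mice per group, intervals are 95%, and a region was called at an adjusted p under 0.05 (Benjamini-Hochberg over all regions).

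The promoters of 3 genes are printed because they belong to metabolic genes whose regions appear in the interaction table the authors deposited and cover the transcription start: Cyp4a32 with a positive interaction, Acsl5 and Angptl8 with a negative one. They were chosen after their values were seen. Each line gives 150 bases before the RefSeq transcription start in lower case and the first 10 transcribed bases in capitals, 5′ to 3′, on the plus strand of GRCm38.p6. Cyp4a32 lies at chr4:115600788-115600947, Acsl5 at chr19:55253219-55253378 and Angptl8 at chr9:21835360-21835519.
Cyp4a32: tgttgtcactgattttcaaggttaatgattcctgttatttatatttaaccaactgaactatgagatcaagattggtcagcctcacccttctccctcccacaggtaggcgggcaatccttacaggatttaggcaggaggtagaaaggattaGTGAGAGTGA
Acsl5: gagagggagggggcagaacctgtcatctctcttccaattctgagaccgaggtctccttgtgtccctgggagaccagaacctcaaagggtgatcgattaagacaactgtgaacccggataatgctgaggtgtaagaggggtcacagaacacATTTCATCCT
Angptl8: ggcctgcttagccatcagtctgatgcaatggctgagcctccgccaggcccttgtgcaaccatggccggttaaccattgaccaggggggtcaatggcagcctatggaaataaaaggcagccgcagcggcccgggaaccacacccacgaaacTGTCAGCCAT
None of the promoters found for 8 of the 11 such genes held a GATA motif (AGATAA or AGATAG, and with a leading T also TGATAA or TGATAG) on either strand, in windows of 250 bases before to 50 bases after each annotated start. Of 32851 mouse promoters of that length in RefSeq, 29.8% held at least 1. One of the 2 Bcl6 promoters held the E-box CACGTG, which is found in 7.15% of all promoters.

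The interaction passed the test at few regions. Regions called with a positive interaction numbered 10 and those with a negative one 5, 15 in all or 0.0236% of 63686 regions (0.0157% and 0.00785% in the 2 directions). Without adjustment, 6073 regions (9.54%) had a p under 0.05, 4043 positive (6.35%) and 2030 negative (3.19%). At an adjusted p under 0.10, 125 regions passed, 85 positive and 40 negative. The number differed between methods. With reads recovered from the normalized values, edgeR's quasi-likelihood test called 7 positive and 3 negative regions with TMM scaling (0.011% and 0.00471% of all regions), and 49 and 15 (0.0769% and 0.0236%) with scaling to totals over the regions. DESeq2 called 314 and 195 (0.493% and 0.306% of 63671 regions), and the authors' deposited table lists 972 (1.53%), of which 663 have a positive and 309 a negative log2 ratio. Leaving out control fasted replicate 2 gave 96 positive and 52 negative calls, and leaving out control fasted replicate 3 gave 4 and 6 by limma. Leaving out 1 other mouse moved at least 1 of the 2 counts by over 1.5 times in 8 cases, to between 6 and 47 positive and between 2 and 16 negative calls. These were knockout refed replicates 2 and 3, control refed replicates 1, 2 and 3, knockout fasted replicates 1 and 2, and control fasted replicate 1.

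**Figure D1:**
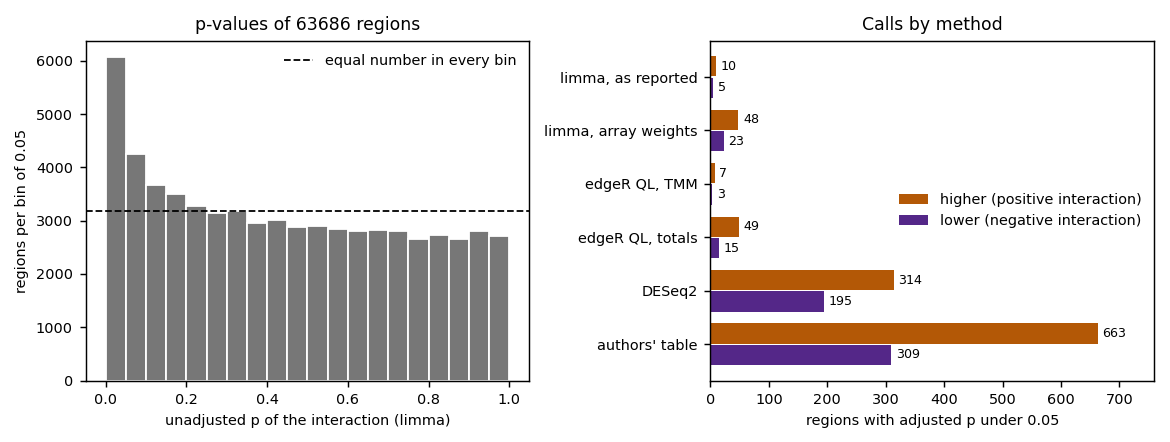
Left, unadjusted limma p-values of the interaction at 63686 regions in 20 bins of 0.05, with a dashed line for equal bins; 6073 regions fall in the lowest bin. Right, regions with an adjusted p under 0.05 by method and direction, with 10 higher and 5 lower by limma against 663 and 309 in the authors' table.

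The typical interaction was small against its error. The median over all regions was 0.06, the median standard error 0.337, and the 5th and 95th percentiles were -0.75 and 1.09 on the log2 scale. Positive estimates made up 57.8% of regions. Rescaling libraries moved the median to 0.01 with median ratios, -0.001 with quantile normalization and 0.01 with cyclic loess. Over the 16313 genes with a region, taking each gene's strongest region, the median was 0.02, and 4 genes (0.0245%) were called, 3 positive (0.0184%) and 1 negative (0.00613%). The authors' deposited table lists the strongest region of 234 genes (1.43%). The refeeding contrast was called in the same direction in both genotypes at 10933 regions and in opposite directions at 37.

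Of the 15 called regions, 9 lay between genes, 5 in introns and 1 at a transcript end. Of all regions, 34.4% lay between genes, 51.2% in introns, 1.58% at transcript ends and 6.93% at promoters. None overlapped an annotated start and none had a GATA4 binding site within 500 bp in the authors' annotation, which marks 8.31% of all regions. All 15 had adjusted p under 0.05 in the authors' deposited table as well, which rests on the same libraries. Sizes could differ: near 1700029F12Rik that table lists a log2 ratio of 0.0143, against 9.66 by limma. At 10 of the 15 the 3 knockout values stood apart from the 3 control values in both feeding states and on opposite sides, 7 of the positive and 3 of the negative regions. The 15 were selected on these same values, which favours such a pattern, and its share over all regions was not counted. The knockout effect itself was called in both states at 4, in refed livers alone at 5 and in fasted livers alone at 6 (1.73% of all regions were called higher and 0.297% lower in refed livers, and 0.312% and 0.245% in fasted livers). Regions are named by the gene with the nearest start, which need not be the gene they act on. That start can be far away, and "near" below does not mean close. The signed distance to the start was 107586 bases for Pou4f1, -129145 for Redrum, 118972 for Nipbl and 313445 for Rprm. Of the 15, 6 had means under the median region, and 4 had 1 group at 0 in all 3 mice. The regions near 1700029F12Rik, F2r, Pou4f1, Redrum, Nipbl, 2310057J18Rik, Gm3143, Gm13490 and Rprm fall outside the rule for names (low mean or predicted gene) and are named because they were called.

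**Figure D2:**
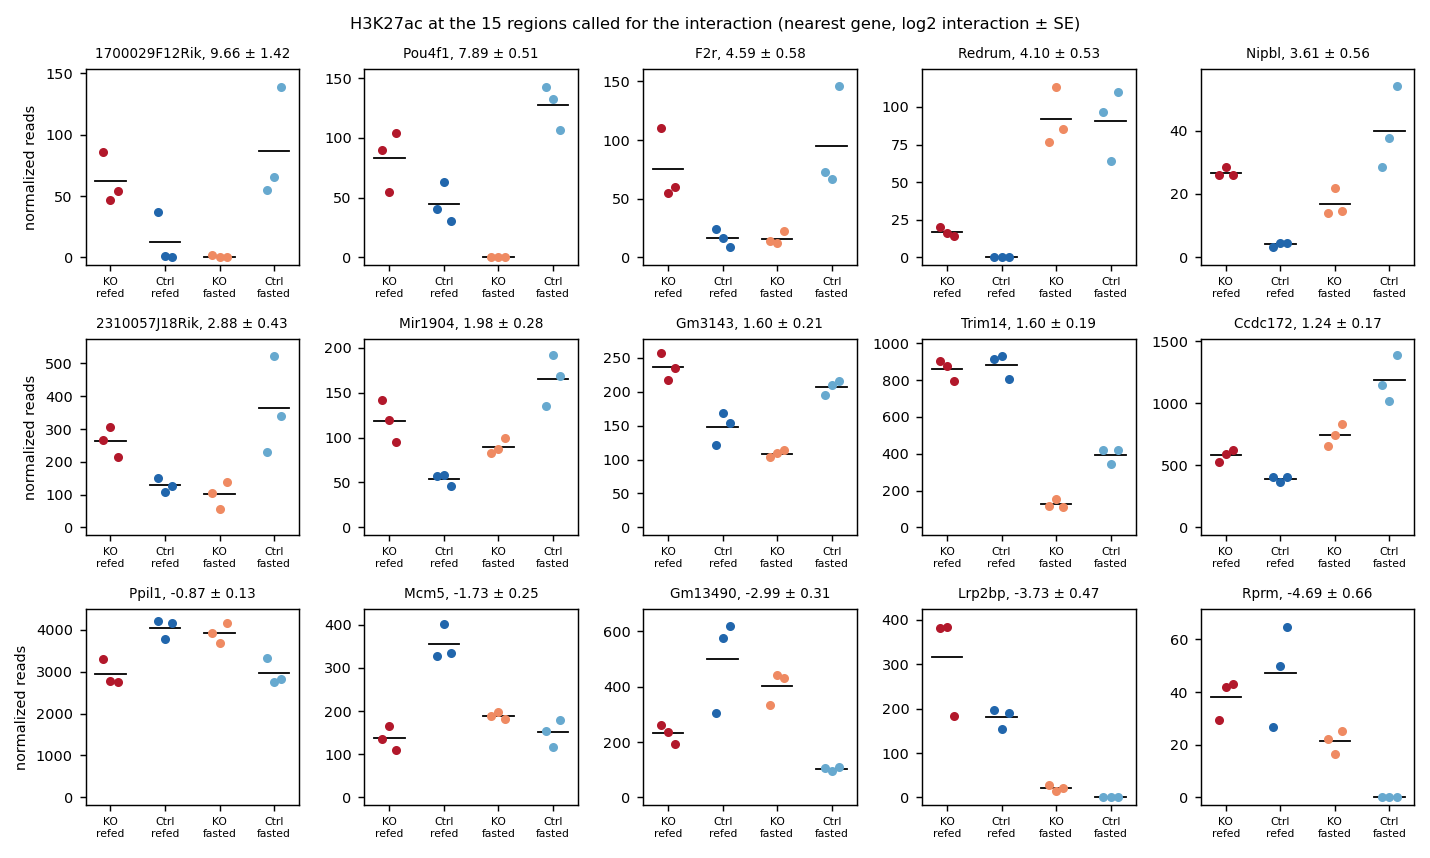
Normalized H3K27ac reads at the 15 called regions; each point is 1 mouse, each line the mean of 3, in knockout (KO) and control (Ctrl) livers. The first 10 panels have a positive log2 interaction and the last 5 a negative one, from 9.66 to -4.69; in the Trim14 panel knockout fasted livers are lowest and the refed genotypes overlap.

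Near Trim14 the genotypes stood apart in fasted livers alone. TRIM14 is an adaptor in antiviral signalling. The region, chr4:46550279-46554075 in mm9, lies in an intron, and held 905, 878 and 793 normalized reads in knockout refed livers, 914, 932 and 807 in control refed livers, 117, 154 and 109 in knockout fasted livers and 418, 343 and 418 in control fasted livers. Knockout fasted livers were below every other mouse, while the refed genotypes overlapped. The interaction was 1.60 ± 0.19 (adjusted p = 0.0105), interval 1.19 to 2.00. Refeeding raised the region in both genotypes, by 2.77 in knockout livers and 1.17 in control livers, with adjusted p = 1.37e-08 in knockout and 1.36e-05 in control livers. Refeeding raised 13.3% of all regions in knockout and 13.2% in control livers. Of the 18 other regions within 100 kb, 15 also had a positive estimate, 4 of these with an unadjusted p under 0.05.

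Next to Ccdc172 (chr19:58627460-58632652, intergenic) control fasted livers were highest. The mice had 526, 594 and 627 normalized reads in knockout refed livers, 404, 365 and 403 in control refed livers, 657, 742 and 838 in knockout fasted livers and 1152, 1021 and 1393 in control fasted livers. Knockout livers were above control livers after refeeding and below them after fasting, without overlap in either state. The interaction was 1.24 ± 0.17 (adjusted p = 0.0259), and refeeding changed the region by -0.35 in knockout livers and -1.59 in control livers on the log2 scale, both called (11.4% of regions were called lower in knockout and 16.8% in control livers). 

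The region near Mir1904, a microRNA gene, lies in an intron at chr13:110689146-110690789. It held 142, 119.5 and 94.7 normalized reads in knockout refed livers, 57.7, 58.5 and 46.2 in control refed livers, 82.4, 86.9 and 99.3 in knockout fasted livers and 135, 192 and 169 in control fasted livers. Again the genotypes did not overlap in either state, with knockout higher in refed and lower in fasted livers, and the interaction was 1.98 ± 0.28 (adjusted p = 0.026). All 4 other regions within 100 kb had positive estimates with an unadjusted p under 0.05, and 2 of them are in the authors' deposited table.

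Near F2r, which encodes the thrombin receptor PAR1, the called region at chr13:96396103-96397386 is annotated to a transcript end. It held 110.2, 54.6 and 60.3 normalized reads in knockout refed livers, 24.2, 16.7 and 8.88 in control refed livers, 14.1, 12.1 and 22.2 in knockout fasted livers and 73.2, 67.1 and 146 in control fasted livers. Knockout refed and control fasted livers were the high groups. The interaction was 4.59 ± 0.58 (adjusted p = 0.0124), with a knockout effect of 2.14 in refed livers and -2.45 in fasted livers, called in each. Its surroundings were mixed: of 26 other regions within 100 kb, 13 had a positive estimate, 7 positive and 4 negative with an unadjusted p under 0.05. Further along chromosome 13, the region nearest 1700029F12Rik (chr13:97762498-97764013) had 85.5, 46.7 and 53.8 normalized reads in knockout refed livers, 36.8, 0.928 and 0 in control refed livers, 2.01, 0 and 0 in knockout fasted livers and 54.9, 65.2 and 139 in control fasted livers. Its interaction of 9.66 ± 1.42 (adjusted p = 0.0291) rests on groups at or near 0, so the size depends on the added constant.

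Near the predicted gene Gm3143 (chr3:34636781-34639328) the values were 256, 217 and 235 normalized reads in knockout refed livers, 121, 169 and 154 in control refed livers, 104, 109 and 114 in knockout fasted livers and 196, 209.5 and 216 in control fasted livers. The interaction was 1.60 ± 0.21 (adjusted p = 0.0132), and neither state showed overlap. The region nearest 2310057J18Rik, at chr10:28771617-28775577, had 265, 307 and 215 normalized reads in knockout refed livers, 150.4, 109 and 127 in control refed livers, 106, 57.2 and 138 in knockout fasted livers and 229, 523 and 339.7 in control fasted livers, with an interaction of 2.88 ± 0.43 (adjusted p = 0.0332). All 7 other regions within 100 kb of it had positive estimates, 6 with an unadjusted p under 0.05. In an intron near Nipbl, which encodes a loader of cohesin onto DNA, the region chr15:8275117-8275865 had few reads, 25.9, 28.5 and 25.8 normalized reads in knockout refed livers, 3.34, 4.64 and 4.44 in control refed livers, 14.1, 22.0 and 14.8 in knockout fasted livers and 28.4, 37.7 and 53.9 in control fasted livers. Its interaction was 3.61 ± 0.56 (adjusted p = 0.0452).

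At 4 called regions 1 group was listed at 0 in all 3 mice. Whether the deposited values had input reads subtracted is not given in the sources used here, so a 0 need not mean that no read fell there, and the folds below hold for the deposited values. Near Pou4f1, a transcription factor of sensory neurons, the region chr14:104758921-104760340 held 90.0, 54.6 and 104 normalized reads in knockout refed livers, 40.1, 63.1 and 30.2 in control refed livers, 0 in all 3 knockout fasted livers and 143, 132 and 107 in control fasted livers. Against a floor of 3 reads in each knockout fasted library, the mean was at least 26.3-fold higher in knockout refed livers and at least 40.2-fold higher in control fasted livers. The fitted interaction, 7.89 ± 0.51 (adjusted p = 7.19e-06), had the smallest adjusted p of all regions but depends in size on the added constant. No other region lay within 100 kb. Near Redrum, a long non-coding RNA gene, the region chr18:54451859-54453750 held 20.2, 15.9 and 14.0 normalized reads in knockout refed livers, 0 in all 3 control refed livers, 76.4, 113 and 85.6 in knockout fasted livers and 97.0, 64.3 and 110.2 in control fasted livers. Knockout refed livers were at least 6.31-fold above control refed livers, and the genotypes overlapped in fasted livers. The fitted interaction was 4.10 ± 0.53 (adjusted p = 0.0124).

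On the negative side, control fasted livers were the group listed at 0. Near Lrp2bp, whose product binds the endocytic receptor megalin, the region chr8:47090527-47094197 held 381, 385 and 183 normalized reads in knockout refed livers, 198, 155 and 189 in control refed livers, 27.1, 15.4 and 22.2 in knockout fasted livers and 0 in all 3 control fasted livers. Knockout fasted livers were at least 7.24-fold and control refed livers at least 60.6-fold above control fasted livers. Refed genotypes overlapped, and the fitted interaction was -3.73 ± 0.47 (adjusted p = 0.0124). None of the 3 other regions within 100 kb had a negative estimate. Near Rprm, which encodes the cell-cycle inhibitor Reprimo, the region chr2:53624156-53624880 held 29.2, 42.1 and 43.1 normalized reads in knockout refed livers, 26.7, 50.1 and 64.8 in control refed livers, 22.1, 16.5 and 25.4 in knockout fasted livers and 0 in all 3 control fasted livers, with a fitted interaction of -4.69 ± 0.66 (adjusted p = 0.0259). Knockout fasted livers were at least 7.15-fold above control fasted livers there.

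In an intron near Gm13490 the region chr2:51570576-51574657 held 263, 238 and 194 normalized reads in knockout refed livers, 304, 577 and 622 in control refed livers, 334, 441 and 431 in knockout fasted livers and 108, 93.7 and 109 in control fasted livers. Control fasted livers were lowest and control refed livers highest on average. The interaction was -2.99 ± 0.31 (adjusted p = 0.00295), with refeeding changes of -0.79 in knockout livers and 2.20 in control livers, both called. Upstream of Mcm5, a subunit of the replicative DNA helicase, the region chr8:77626136-77628522 held 136, 165 and 109.8 normalized reads in knockout refed livers, 328, 401 and 335 in control refed livers, 189, 198 and 181 in knockout fasted livers and 154, 118 and 180.2 in control fasted livers. Control refed livers stood above all others, and the interaction was -1.73 ± 0.25 (adjusted p = 0.0291). The strongest called region was intronic near Ppil1, a spliceosomal proline isomerase, at chr17:29383545-29399419, with 3312, 2771 and 2741 normalized reads in knockout refed livers, 4200.4, 3768 and 4165 in control refed livers, 3917, 3688 and 4163 in knockout fasted livers and 3335, 2749.6 and 2829 in control fasted livers. The genotypes changed places between feeding states, with an interaction of -0.87 ± 0.13 (adjusted p = 0.0291), the smallest in size of the 15.

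Pou4f1, Gm13490, Trim14, F2r and Gm3143 were called under all 22 alternative settings. The other 10 missed the threshold under 2 to 11 settings each, with the same direction in each. The region just outside the threshold had an adjusted p of 0.0597, and the called regions' adjusted p ran up to 0.0452. Taken by the refeeding contrasts, 7 of the 15 fell among the 37 regions where refeeding was called in opposite directions in the 2 genotypes. Among the 8113 where it was called in control livers alone were 4, with 4 among the 10933 called the same way in both, and none among the 4748 called in knockout livers alone. These contrasts share libraries with the interaction.

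By class, the share of regions with an unadjusted p under 0.05 was 4.87% of 4413 promoter regions and 4.51% of 821 5′ UTR regions, against 9.58% of 32580 intronic and 10.8% of 21878 intergenic regions. Among the 15922 regions with the highest means it was 4.27% at promoters, 12.6% in introns and 16.1% between genes. Regions near a GATA4 binding site reached 8.82%, 4.50% positive and 4.33% negative. Regions with none reached 9.60%, 6.52% positive and 3.08% negative. Their median mean was 81.0 normalized reads, against 375 near a binding site. Among the 15922 regions with the highest means, bound ones reached 12.0% (5.44% positive, 6.52% negative). Unbound ones there reached 11.5% (5.83% positive, 5.63% negative). None of the 5292 GATA4-bound regions was called by limma, against 15 of 58394 unbound ones, while 467 bound regions had an unadjusted p under 0.05 and 65 are in the authors' deposited table. Among bound regions DESeq2 called 27, edgeR with totals 2 and edgeR with TMM 0. Bound regions make up 6.69% of that table. By chromosome, the share was highest on 14 (12.8%), which carries Gata4, and 13 (12.1%, with 3 called regions), and lowest on X (6.92%). These shares are descriptions without a test.

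**Figure D3:**
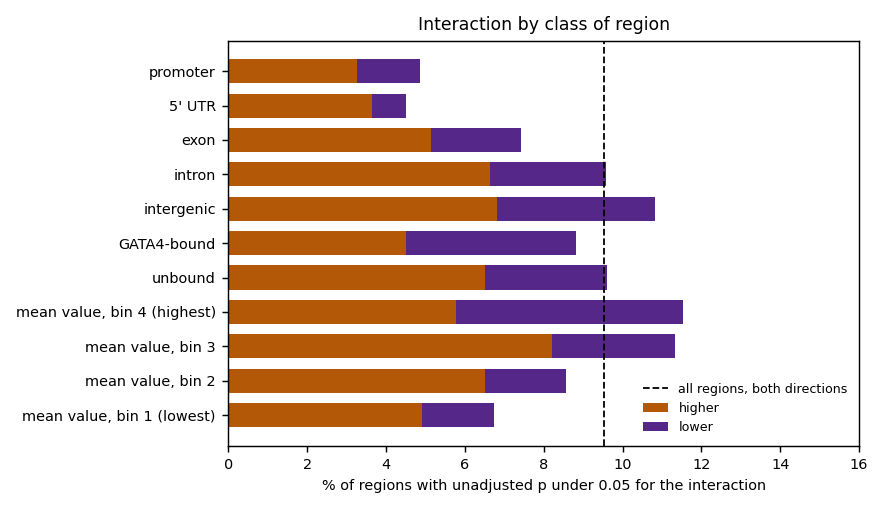
Share of regions with an unadjusted limma p under 0.05 for the interaction, split into higher (positive) and lower (negative), by annotation, GATA4 binding and mean value (4 equal bins). Promoter regions reach 4.87% and intergenic regions 10.8%; the dashed line is 9.54% for all regions.

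The Gata4 locus itself carried no called interaction. Its strongest region, chr14:63845909-63872243, spans the transcription start and has a GATA4 binding site. It held 5124, 5589 and 5756 normalized reads in knockout refed livers, 5161, 5036 and 4745 in control refed livers, 4157, 4177 and 3879 in knockout fasted livers and 3464, 3535 and 3784 in control fasted livers. Knockout livers overlapped with control livers in refed mice and were above them in fasted mice, and the interaction was -0.04 ± 0.09 (adjusted p = 0.933), interval -0.23 to 0.15. The sign turned to 0.05 with quantile normalization and to 0.02 with cyclic loess. H3K27ac over this region does not test whether the floxed exons were deleted. For Gata6, the related factor of liver, the strongest region was intergenic (chr18:10956936-10959608), at a signed distance of -94236 bases from the start. It held 412, 516 and 322 normalized reads in knockout refed livers, 325, 373 and 319 in control refed livers, 436, 418 and 519 in knockout fasted livers and 429, 308 and 327 in control fasted livers. Its interaction of -0.10 ± 0.24 (adjusted p = 0.934) turned to 0.07 without knockout refed replicate 3. Of the 10 measured genes of the GATA family and its cofactors, none had an unadjusted p under 0.05.

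Genes were then read in lists of liver functions, each gene by its strongest region. No list held a gene called by limma on that region (the called region upstream of Mcm5 is not its strongest), against 0.0245% of all genes, and 8.88% of all genes had an unadjusted p under 0.05 (4.90% positive and 3.98% negative). Among the list genes named here, DESeq2 called Cyp4a10, Cyp4a31, Acsl5, Angptl8, Hsd3b7 and Crat on the strongest region, and edgeR with totals called Cyp4a31. The values below are therefore those of interactions that did not pass limma's test, and p-values adjusted over a list alone are not given. Directions on the strongest region need not hold over all regions of a list. Counts over all regions of a list's genes stand beside 6.35% positive and 3.19% negative of all regions.

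In fat burning, the Cyp4a genes had interactions of 0.52 to 1.36, which limma did not call. Of 39 measured genes of fatty acid oxidation and ketogenesis, none was called on the strongest region by limma or by edgeR with TMM, 3 by DESeq2 and 1 by edgeR with totals. There 4 positive and 5 negative had an unadjusted p under 0.05. The list's median was -0.04, against 0.02 over all genes. All 4 positive ones were Cyp4a genes, neighbouring PPARα targets on chromosome 4 that encode fatty acid omega-hydroxylases. Since these paralogs are similar in sequence, the split of reads between them is uncertain. Over all 161 regions of the 39 genes, 15 positive and 14 negative had an unadjusted p under 0.05. DESeq2 called 9 of these regions and edgeR with totals 2.

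Cyp4a10 (chr4:115184411-115195631, spanning its start) had 673, 497 and 572 normalized reads in knockout refed livers, 259.9, 175 and 266 in control refed livers, 1527, 1884 and 2099 in knockout fasted livers and 1992, 1424 and 2054 in control fasted livers. Knockout refed livers stood above control refed livers, and the fasted groups overlapped. Refeeding changed the region by -1.66 in knockout livers and -2.97 in control livers, with adjusted p = 1.26e-05 in knockout and 3.82e-08 in control livers, and the interaction was 1.31 ± 0.25 (adjusted p = 0.0735). Its DESeq2 adjusted p was 0.00445. In refed livers the knockout effect was 1.32 ± 0.18, adjusted p = 0.00403, and in fasted livers 0.02 ± 0.18, adjusted p = 0.982.

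Cyp4a31 had 366, 248 and 263 normalized reads in knockout refed livers, 108, 121 and 133 in control refed livers, 687, 763 and 814 in knockout fasted livers and 723, 636 and 809 in control fasted livers, with an interaction of 1.19 ± 0.21 (adjusted p = 0.0653) and a DESeq2 adjusted p of 0.000702. Its refed groups stood apart and its fasted groups overlapped, as at Cyp4a10. Cyp4a14 had an interaction of 1.36 ± 0.39 (adjusted p = 0.258), from 459, 229.9 and 346 normalized reads in knockout refed livers, 140.4, 95.6 and 222 in control refed livers, 1022, 1402 and 1483 in knockout fasted livers and 1524, 1128 and 1744 in control fasted livers. Cyp4a32, whose promoter is printed above, had 851, 847 and 819 normalized reads in knockout refed livers, 664, 486 and 546 in control refed livers, 1751, 1895 and 1966 in knockout fasted livers and 1887, 1620.2 and 1863 in control fasted livers, and an interaction of 0.52 ± 0.15 (adjusted p = 0.257). At all 4 genes the knockout effect was called positive in refed livers and not called in fasted livers, with refed values of 1.25 ± 0.15, adjusted p = 0.00304 at Cyp4a31, 1.20 ± 0.28, adjusted p = 0.0413 at Cyp4a14 and 0.58 ± 0.11, adjusted p = 0.0153 at Cyp4a32. Of all regions, 1.73% were called higher in refed and 0.312% in fasted knockout livers. The 4 genes were picked for a positive interaction in these same libraries, which favours such a pattern. At 8 of the 10 regions nearest Cyp4a10, the authors' deposited table lists a positive interaction, and it lists 1.53% of all regions.

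Among the negative members, Crat, the mitochondrial carnitine acetyltransferase, had 2607, 2233 and 2560.2 normalized reads in knockout refed livers, 2363, 2264 and 2561 in control refed livers, 2901, 2939.7 and 3037 in knockout fasted livers and 2032, 2314 and 2248 in control fasted livers. Its fasted knockout livers were above fasted control livers while the refed groups overlapped, and the interaction was -0.39 ± 0.11 (adjusted p = 0.246), with a DESeq2 adjusted p of 0.042. Plin2, which coats lipid droplets, had -0.32 ± 0.12, Ehhadh of the peroxisomal pathway -0.32 ± 0.13, Acaa1b, a peroxisomal thiolase, -0.31 ± 0.13, and Acsl1, which activates fatty acids, -0.23 ± 0.09, with adjusted p between 0.387 and 0.472.

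**Figure D4:**
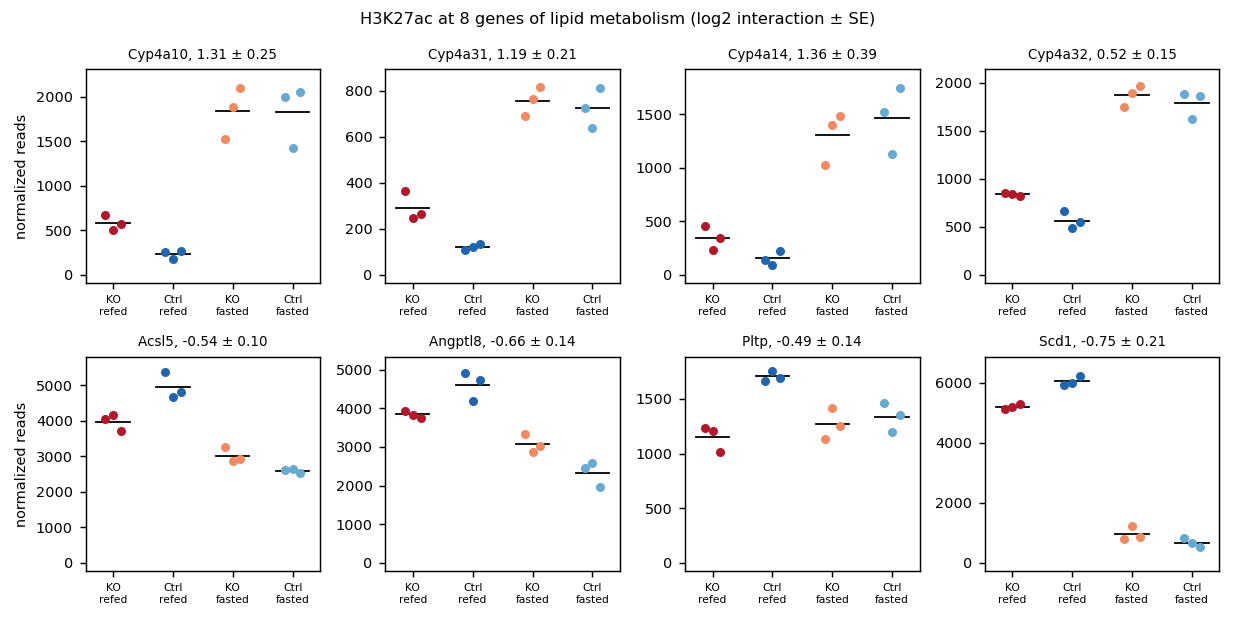
Normalized H3K27ac reads at the strongest region of 8 genes; each point is 1 mouse, each line the mean of 3, with the log2 interaction ± standard error above each panel. In the Cyp4a panels knockout refed livers stand above control refed livers while fasted groups overlap; in the Acsl5 and Angptl8 panels knockout livers are below control livers when refed and above them when fasted.

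In fat synthesis, Acsl5 and Scd1 had negative interactions, called at Acsl5 by DESeq2 and at neither by limma. Of 28 measured lipogenesis genes, none was called by limma or edgeR on the strongest region and 1 by DESeq2. There 1 positive and 4 negative had an unadjusted p under 0.05, with a median of -0.06. Over all 157 regions of these genes it was 15 positive and 6 negative, with a median of 0.02. An intronic region near Acaca, chr11:84134725-84136956, read after its values were seen, had 3.39 ± 0.54 (limma adjusted p = 0.0597). DESeq2 and edgeR with totals called it. Control refed livers were at 0 there in all 3 mice, so its size depends on the added constant. Acsl5, which activates long-chain fatty acids, had 4059.5, 4149.7 and 3697 normalized reads in knockout refed livers, 5368, 4668 and 4807 in control refed livers, 3256, 2853 and 2932 in knockout fasted livers and 2600.3, 2631 and 2528 in control fasted livers. Knockout livers were below control livers after refeeding and above them after fasting. Refeeding raised the region by 0.40 in knockout livers and 0.93 in control livers, both called, and the interaction was -0.54 ± 0.10 (adjusted p = 0.0735), interval -0.75 to -0.32. Its DESeq2 adjusted p was 0.00969.

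Scd1, the stearoyl-CoA desaturase, had refeeding changes of 2.45 in knockout livers and 3.20 in control livers. It held 5108, 5195 and 5282 normalized reads in knockout refed livers, 5932, 5981 and 6232 in control refed livers, 799.9, 1223 and 869 in knockout fasted livers and 819.5, 668 and 519 in control fasted livers. The interaction was -0.75 ± 0.21 (adjusted p = 0.251), interval -1.20 to -0.29. Fasn, the fatty acid synthase, had 7091, 7139 and 7296 normalized reads in knockout refed livers, 7229.9, 7752 and 7709 in control refed livers, 3774, 3798 and 3949 in knockout fasted livers and 4166, 4134 and 3969.9 in control fasted livers, and nearly equal refeeding changes of 0.90 in knockout livers and 0.89 in control livers. Its interaction of 0.02 ± 0.07 (adjusted p = 0.972) had an interval of -0.14 to 0.17 and turned to -0.04 with median-ratio rescaling. Srebf1, which encodes SREBP1c, had 4279, 4385 and 4541 normalized reads in knockout refed livers, 4990.2, 5355 and 5109 in control refed livers, 2861, 2306 and 2102 in knockout fasted livers and 2711, 2609 and 2143 in control fasted livers, with an interaction of -0.18 ± 0.15 (adjusted p = 0.749) and an interval of -0.49 to 0.13. Gpam, the first acyltransferase of triglyceride synthesis, had -0.32 ± 0.11 (adjusted p = 0.346), and Thrsp, a lipogenic nuclear protein, -0.30 ± 0.14. Hsd17b12, of fatty acid elongation, was the positive one at 0.21 ± 0.10.

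Of 17 measured LXR targets, genes of sterol and lipid export under the oxysterol receptor, none was called by any of limma, edgeR or DESeq2. On the strongest region 2 negative ones, Scd1 and Pltp, had an unadjusted p under 0.05. Over all 101 regions of these genes it was 5 positive and 5 negative. Pltp, the phospholipid transfer protein, had 1237, 1209.9 and 1018 normalized reads in knockout refed livers, 1668, 1755 and 1694 in control refed livers, 1137, 1413 and 1249.6 in knockout fasted livers and 1466, 1199 and 1349.7 in control fasted livers, with knockout below control in refed livers and overlap in fasted livers. Its interaction was -0.49 ± 0.14 (adjusted p = 0.275). Abca1, the cholesterol exporter and an LXR target, had 6112, 5959 and 6140.1 normalized reads in knockout refed livers, 7279, 6615 and 7258 in control refed livers, 6298, 6211 and 6279.8 in knockout fasted livers and 7495, 6103 and 5965 in control fasted livers in a region with a GATA4 binding site. Knockout was below control in refed livers without overlap, the fasted groups overlapped, and the interaction was -0.16 ± 0.11 (adjusted p = 0.671), interval -0.39 to 0.06. Abca1 has other regions in the table, read here after their values were seen, and they differed in sign. The one over its start, chr4:53169886-53174237 (mm9), had an interaction of -0.44 ± 0.13 (adjusted p = 0.251) and is in the authors' deposited table with an adjusted p of 0.0311. An intergenic one at chr4:53198084-53200828 had 0.61 ± 0.23 (adjusted p = 0.392), and both had an unadjusted p under 0.05.

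Of 20 measured genes of glycolysis, the pentose phosphate route and ChREBP, none was called by limma, edgeR or DESeq2, and 2 positive and 4 negative had an unadjusted p under 0.05, with a median of -0.06. Khk, the fructokinase, had 10030.1, 10089 and 10175 normalized reads in knockout refed livers, 11028, 11441 and 11150.2 in control refed livers, 8059, 7526 and 8519 in knockout fasted livers and 6886, 8057 and 7079 in control fasted livers, and an interaction of -0.28 ± 0.09 (adjusted p = 0.304). Mlxipl, which encodes ChREBP, had -0.39 ± 0.16 and Pklr, liver pyruvate kinase, -0.21 ± 0.10. Positive ones were Pfkfb1, the liver phosphofructokinase-2, at 0.31 ± 0.15, and Rgs16, a regulator of G-protein signalling, at 0.50 ± 0.23.

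Of 23 measured genes of gluconeogenesis and fasting, 1 positive and 3 negative had an unadjusted p under 0.05 on the strongest region. None was called there by limma, edgeR or DESeq2. Over all 239 regions of these genes 25 positive and 8 negative had an unadjusted p under 0.05, and DESeq2 called 2. Pck1, the gluconeogenic carboxykinase, had 2583, 2043 and 1704 normalized reads in knockout refed livers, 2229, 1317 and 1881 in control refed livers, 4503, 6580.5 and 6707 in knockout fasted livers and 8499.7, 6313 and 7233 in control fasted livers. Both genotypes lost signal on refeeding, with log2 changes of -1.49 in knockout livers and -2.04 in control livers, both called, and the interaction was 0.56 ± 0.27 (adjusted p = 0.548), interval -0.03 to 1.14. The authors' deposited table lists 5 of the 239 regions, and 2 of these were read after their values were seen. Near Pck1, chr2:173008887-173010617 has a log2 ratio of 1.35 (adjusted p of 0.00278 in that table). Near G6pc, chr11:101238452-101242588 has -0.64 (0.0248). G6pc, glucose-6-phosphatase, had -0.34 ± 0.12 (adjusted p = 0.386). Nr4a1, a glucagon-responsive nuclear receptor, had -0.29 ± 0.13 and Pcx, pyruvate carboxylase, -0.23 ± 0.11. Fkbp5, a glucocorticoid target, was the positive one at 0.67 ± 0.32.

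Of 21 measured lipoprotein genes, none was called by limma or edgeR and 1 by DESeq2 on the strongest region. There 4, all negative, had an unadjusted p under 0.05. Over all 135 regions of these genes it was 14 positive and 7 negative. Angptl8, an insulin-induced inhibitor of lipoprotein lipase, had 3938, 3837 and 3754 normalized reads in knockout refed livers, 4922, 4181 and 4726 in control refed livers, 3340.4, 2863 and 3018 in knockout fasted livers and 2459, 2588 and 1965 in control fasted livers. As at Acsl5, knockout was below control when refed and above it when fasted. The interaction was -0.66 ± 0.14 (adjusted p = 0.101), with a DESeq2 adjusted p of 0.0148. Lrp1, the remnant receptor, had -0.25 ± 0.07 (adjusted p = 0.246), and Tm6sf2, needed for VLDL loading, -0.58 ± 0.26. Over all 147 regions of the 23 measured bile acid genes, 15 positive and 2 negative had an unadjusted p under 0.05, and edgeR with totals called 1. On the strongest region no gene was called by limma or edgeR, 1 by DESeq2, and 1, negative, had an unadjusted p under 0.05. This was Hsd3b7, a steroid dehydrogenase of bile acid synthesis, which had 5548, 5617 and 5903 normalized reads in knockout refed livers, 7218, 6588 and 6137 in control refed livers, 6689, 5713 and 6436 in knockout fasted livers and 5366, 5396 and 4838 in control fasted livers, and an interaction of -0.49 ± 0.10 (adjusted p = 0.112). Cyp7a1, which sets the pace of bile acid production, had 1384, 1326 and 1196 normalized reads in knockout refed livers, 1178, 946 and 1234 in control refed livers, 1841, 2805 and 2207 in knockout fasted livers and 3172, 1746 and 2477 in control fasted livers, with an interaction of 0.31 ± 0.26 (adjusted p = 0.762). Of 23 measured cholesterol synthesis genes, none was called by limma, edgeR or DESeq2, and 2 positive and 1 negative had an unadjusted p under 0.05. Srebf2, the pathway's activator, had 0.31 ± 0.13, and Sc5d, a late desaturase, -0.34 ± 0.12.

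**Figure D5:**
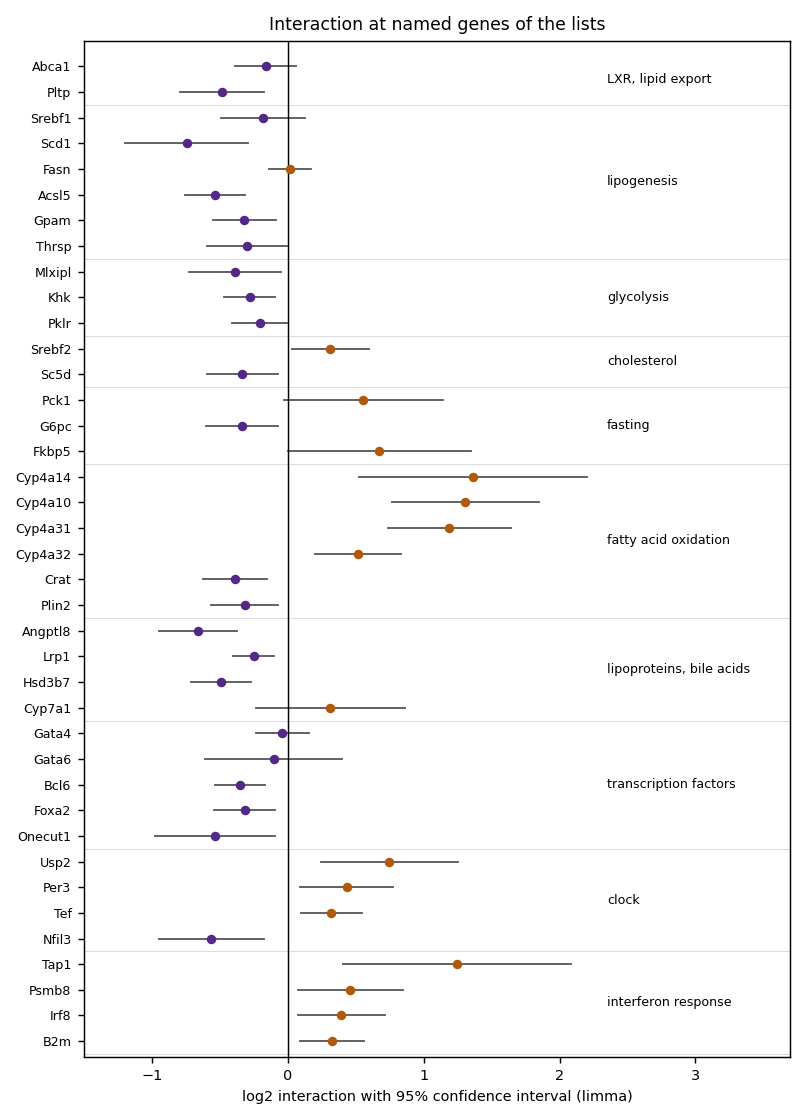
Log2 interaction (points) with its 95% confidence interval (lines) at the strongest region of named genes, grouped by function; orange points are positive and purple points negative. The Cyp4a genes lie between 0.52 and 1.36, Scd1 and Angptl8 at -0.75 and -0.66, and Fasn at 0.02; none was called by limma.

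Of 23 measured hepatocyte transcription factors, 4 had an unadjusted p under 0.05 on the strongest region, all negative. None was called there by limma, edgeR or DESeq2. Over all 248 regions of these genes 22 positive and 17 negative had an unadjusted p under 0.05, and DESeq2 called 1. Bcl6, a repressor of fatty acid oxidation genes, had 10757, 10867 and 12454 normalized reads in knockout refed livers, 14485, 14639 and 14212 in control refed livers, 12567, 12504 and 13308 in knockout fasted livers and 13557, 12713 and 12011 in control fasted livers. Its refed groups stood apart, with knockout lower at -0.35 ± 0.06, adjusted p = 0.0138, and its fasted groups overlapped, with an interaction of -0.35 ± 0.09 (adjusted p = 0.174). Foxa2, a pioneer factor, had -0.32 ± 0.11 (adjusted p = 0.329). Onecut1 (HNF6) had -0.54 ± 0.21 and Klf9, a glucocorticoid-induced factor, -0.23 ± 0.10.

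Of 21 measured circadian clock genes, 6 positive and 1 negative had an unadjusted p under 0.05, none was called by limma, edgeR or DESeq2, and the median was 0.04. Usp2, a clock-controlled deubiquitinase, had 1791, 1296 and 1893 normalized reads in knockout refed livers, 1021, 1067 and 1138 in control refed livers, 2154, 2767 and 1624 in knockout fasted livers and 2705, 2159 and 2208 in control fasted livers. Knockout refed livers were above control refed livers, fasted livers overlapped, and the interaction was 0.75 ± 0.24 (adjusted p = 0.312). Tef, a PAR-bZIP output factor, had 0.32 ± 0.11 (adjusted p = 0.329), Per3, a period gene, 0.43 ± 0.16, Bhlhe41, a repressor of the loop, 0.50 ± 0.19, Ciart, another repressor, 0.47 ± 0.21, and Csnk1d, the kinase of PER proteins, 0.29 ± 0.10. Nfil3, a repressor that competes with TEF for its sites, was the negative one at -0.56 ± 0.18 (adjusted p = 0.324).

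Of 26 measured interferon response genes, 6 positive and none negative had an unadjusted p under 0.05 on the strongest region. None was called there by limma, edgeR or DESeq2. Over all 94 regions of these genes it was 10 positive and 0 negative, and DESeq2 called 1. The authors' deposited table lists 1 of them, near Psmb9 (chr17:34316123-34319045), with a log2 ratio of 0.87. The list's median of 0.26 stood beside 0.02 over all genes. Tap1, the peptide transporter of antigen presentation, had 247, 343 and 324 normalized reads in knockout refed livers, 179, 195 and 107 in control refed livers, 146, 214 and 131 in knockout fasted livers and 133, 193 and 290.4 in control fasted livers, and an interaction of 1.25 ± 0.40 (adjusted p = 0.313). Psmb8 and Psmb9, subunits of the immunoproteasome, had 0.46 ± 0.18 and 0.38 ± 0.16. Irf8, a myeloid and interferon factor, had 0.39 ± 0.15, Oasl1, an antiviral oligoadenylate synthetase-like protein, 0.62 ± 0.26, and B2m, the light chain of class I molecules, 0.32 ± 0.11. Tap1, Psmb8 and Psmb9 are neighbours on chromosome 17 and are not independent.

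In the other functions no gene was called by limma, edgeR or DESeq2 on the strongest region. An unadjusted p under 0.05 was found at 3 positive and 2 negative of 20 periportal genes, 1 and 2 of 22 pericentral genes, 3 and 4 of 26 genes of amino acid breakdown and the urea cycle, and 4 and 4 of 23 acute phase genes. Over all their regions it was 13 positive and 3 negative of 148, 12 and 2 of 152, 11 and 6 of 147, and 12 and 7 of 98. On the strongest region it was found at 2 negative of 18 growth hormone and STAT5 genes, 2 negative of 17 insulin signalling genes and 1 negative of 20 proliferation genes. Over all regions of these 3 lists it was found at 13 positive and 6 negative of 158, 13 and 8 of 210, and 1 and 3 of 64. None of 21 unfolded protein response genes and none of 5 measured fetal liver genes had one on the strongest region. Over all their regions it was 4 positive and 3 negative of 88, and 4 and 1 of 17. Ctsc, a lysosomal protease listed as periportal, had 562, 511 and 417 normalized reads in knockout refed livers, 364, 259 and 321 in control refed livers, 609, 609.7 and 612 in knockout fasted livers and 768, 621 and 709 in control fasted livers, without overlap in either state, and an interaction of 0.85 ± 0.19 (adjusted p = 0.148). Fah, the last enzyme of tyrosine breakdown, had 2789.6, 2933 and 2865 normalized reads in knockout refed livers, 3299, 3177 and 3054 in control refed livers, 2949, 2808 and 2643 in knockout fasted livers and 2614, 2263 and 2209 in control fasted livers, and an interaction of -0.40 ± 0.10 (adjusted p = 0.206). Asl, of the urea cycle, had 1.34 ± 0.50 in an intronic region 9890 bases from its start. That region had a mean of 43.0 normalized reads, under the 90.6 of the median region. Aass, of lysine breakdown, had -0.50 ± 0.17.

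H3K27ac near markers of other liver cells was read in the same way, and its part in the results was not tested. Summed values ran from 31484 to 32579 in knockout refed, 33339 to 34571 in control refed, 31685 to 32921 in knockout fasted and 32589 to 33189 in control fasted livers for 24 of 25 sinusoidal endothelial markers, the others having no region. For 10 of 17 Kupffer cell and macrophage markers the ranges were 6787 to 7503, 7506 to 7823, 5759 to 7560.2 and 5931 to 6899 in the same groups. For 4 of 10 neutrophil markers they were 1122 to 1277, 872 to 947, 1453 to 1680.3 and 1153 to 1354. Lymphocyte markers, 10 of 17, ran 2800.3 to 3147, 3217 to 3471, 2954 to 3324 and 2806 to 3220.4. Cholangiocyte markers, 9 of 12, ran 6116 to 6298, 5910.3 to 6329, 4456 to 5019.7 and 4561 to 4752. Stellate markers, 17 of 21, ran 3823 to 4218, 4439 to 4892, 3279 to 3541 and 3595 to 4067. Hepatocyte markers, 14 of 15, ran 68644 to 69904, 72042 to 81724, 80250.2 to 85674 and 80826 to 93005. Knockout sums were above control sums without overlap in both feeding states for neutrophil markers and below them in both for stellate markers. In refed livers knockout sums were also below control sums without overlap for endothelial, macrophage, lymphocyte and hepatocyte markers, and these 4 lists overlapped in fasted livers. Cholangiocyte sums overlapped in both states. A sum can rest on 1 gene. The highest gene mean was 1086 against a list median of 65.3 for neutrophil markers, and 5325 against 152 for macrophage markers. These 2 sums therefore mostly follow a single locus each. How often such sums separate for other sets of genes was not counted. Of the marker genes, 2 positive and 3 negative endothelial, 3 negative hepatocyte, 2 negative of 9 cholangiocyte, 1 negative of 10 macrophage and 1 negative of 10 lymphocyte genes had an unadjusted p under 0.05. None of the stellate and neutrophil genes did, and limma called no marker.

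The authors' deposited table lists 972 interaction regions, 1.53% of all regions. Every one had the same sign in limma's fit, 962 (99.0%) had an unadjusted p under 0.05, and their median limma adjusted p was 0.206. The same sign did not mean the same size. Near Esr1, at chr10:5744434-5745258, the table lists a log2 ratio of 0.106, against 2.79 by limma. The 15 limma calls are 100% of limma's list and 1.54% of the table, and 477 of DESeq2's 509 calls are in it, 93.7% of DESeq2's list and 49.1% of the table. Both analyses rest on the same libraries. Among its 663 positive regions, the highest group mean was knockout refed at 185, control refed at 12, knockout fasted at 97 and control fasted at 369. The lowest of these was knockout refed at 2, control refed at 492, knockout fasted at 167 and control fasted at 2. Among its 309 negative regions the lowest mean was knockout refed at 84, control refed at 1, knockout fasted at 4 and control fasted at 220. Positive regions of the table were thus most often highest in control fasted and lowest in control refed livers. They were listed for a positive interaction in these same libraries, which favours such an order. The order over all regions was not counted.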

How the data were processed

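H3K27ac chromatin immunoprecipitation sequencing of 12 livers was analysed. The 12 matched input libraries were not used here. Whether input reads were subtracted by the authors is not given in the sources used here. The submitters' processing notes name mm9 and, with no version or role, MACS2, DiffBind, edgeR, HOMER, Bowtie2, Trim Galore, FastQC, SAMtools, deepTools and bedtools. The deposited signal is a normalized read count per region, 1 column per library; every value is within 0.01 of a whole multiple of that library's smallest step (100% of values), so reads could be recovered, and each library sums to the same total. Per the file headers, the authors' interaction table gives a log2 ratio and a p-value with a false discovery rate per region. Coordinates are mm9 and 1-based.

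Here log2(value + 1) was fitted with limma 3.58.1 (R 4.3.3), with 4 group means, an intensity trend, 8 residual degrees of freedom and Benjamini-Hochberg adjustment over 63686 regions. The step was tested on simulated data. The 22 alternatives were pseudocounts of 0.5 and 5, no regions under the 0.25 quantile of means, 3 rescalings, array weights, edgeR 4.0.16 with 2 scalings, DESeq2 1.42.0 and leaving out each mouse. On the recovered reads edgeR called 10 regions with TMM and 64 with totals, and DESeq2 called 509.

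A gene is represented by its region with the highest mean. The 28 gene lists and the regions were chosen with earlier results of these data known. Named genes are called regions at or above the median mean (up to 15 per direction, no predicted genes), up to 4 genes per list with the smallest adjusted p, and 8 genes named in any case; other regions and genes named, among them list genes with an unadjusted p under 0.05, were chosen after their values were seen. P-values measure the spread between 3 mice per group. Values of 2 list genes are not reported here.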

Additional observations from a re-analysis of the deposited data

Results flagged for a closer look

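At 15 regions the knockout effect differed between the feeding states by the interaction test itself, and these are the results a reader may want to look at again. The log2 interactions above 0 were 9.66 ± 1.42 near 1700029F12Rik, 7.89 ± 0.51 near Pou4f1, 4.59 ± 0.58 near F2r, 4.10 ± 0.53 near Redrum and 3.61 ± 0.56 near Nipbl. They were 2.88 ± 0.43 near 2310057J18Rik, 1.98 ± 0.28 near Mir1904, 1.60 ± 0.21 near Gm3143, 1.60 ± 0.19 near Trim14 and 1.24 ± 0.17 near Ccdc172. Below 0 were -0.87 ± 0.13 near Ppil1, -1.73 ± 0.25 near Mcm5, -2.99 ± 0.31 near Gm13490, -3.73 ± 0.47 near Lrp2bp and -4.69 ± 0.66 near Rprm. Errors are limma standard errors with 3 mice per group. The sizes near Pou4f1, Redrum, Lrp2bp and Rprm rest on a group listed at 0 in every mouse, and that near 1700029F12Rik on groups at or near 0. Whether input reads were subtracted before deposit, which could set such zeros, is not given in the sources used here.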

How the results depend on the processing

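No paired analysis was possible because the labels give no replicate number shared between groups. The direction of all 15 called regions held under every alternative that tested them (Nipbl and Rprm fell below the filter on low regions). Against 10 regions called with a positive and 5 with a negative interaction, a pseudocount of 5 gave 20 and 8, array weights 48 and 23, edgeR with totals 49 and 15 and DESeq2 314 and 195. edgeR with TMM gave 3 negative calls beside 7 positive ones. Leaving out 1 mouse gave 4 to 96 positive and 2 to 52 negative calls, the highest of both without control fasted replicate 2. Positive calls made up 66.7% by limma and 76.6% by edgeR with totals. Signs that turned all belonged to uncalled interactions close to 0. Gata4 turned to 0.05 (0.0489) with quantile normalization, 0.02 (0.0163) with cyclic loess and 0.0086 without knockout refed replicate 1, and Gata6 to 0.0691 without knockout refed replicate 3. Fasn turned to -0.0418 with median-ratio rescaling, -0.0296 with edgeR and TMM, -0.0397 with DESeq2 and -0.0168 without control refed replicate 1. Leaving out 1 mouse, the values ran from -0.0779 to 0.0086 for Gata4, -0.2698 to 0.0691 for Gata6 and -0.0168 to 0.0367 for Fasn. The cause of these shifts was not tested. With 3 mice per group and a median standard error of 0.337, interactions near the median region were not detectable unless large.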

Other observations

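Several genes collected 5 or more regions of the authors' deposited interaction table, which lists 1.53% of all regions, 663 positive and 309 negative. The genes were chosen after their values were seen, for their number of listed regions, which favours high shares. Limma called none of the regions described here. Near Pxylp1, which encodes a phosphatase that acts on the xylose of proteoglycan linkers, 5 of 9 regions are listed. At 1 of them, chr9:96741750-96743800, the mice had 190.1, 232 and 219 normalized reads in knockout refed livers, 0 in all 3 control refed livers, 0 in all 3 knockout fasted livers and 0 in all 3 control fasted livers. All 3 knockout refed livers carried signal there and the other 9 libraries were listed at 0, with a fitted interaction of 7.74 ± 1.37 (adjusted p = 0.0653). With 3 of 4 groups at 0 that size depends on the added constant. The adjusted p was 0.000823 with DESeq2 and 1.00 with edgeR, and the authors' deposited table lists a log2 ratio of 0.0011 there with an adjusted p of 0.000432. At chr9:96751253-96752847 in the same gene the values were 180.0, 165 and 198 normalized reads in knockout refed livers, 29.3, 18.6 and 22.2 in control refed livers, 14.1, 20.9 and 20.1 in knockout fasted livers and 5.49, 34.0 and 35.6 in control fasted livers, again highest in knockout refed livers.

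Near Trim24, which encodes a bromodomain cofactor, 5 of 25 regions are listed, all positive. At chr6:37721403-37727316 the mice had 465, 269 and 258 normalized reads in knockout refed livers, 41.0, 75.2 and 114 in control refed livers, 448, 834 and 614 in knockout fasted livers and 798, 417 and 704 in control fasted livers. Control refed livers were lowest, and the interaction was 2.17 ± 0.48 (adjusted p = 0.139). At chr6:37851265-37853580 the values were 68.6, 104 and 58.1 normalized reads in knockout refed livers, 20.1, 22.3 and 24.0 in control refed livers, 298, 433 and 283 in knockout fasted livers and 404, 251 and 298 in control fasted livers, with an interaction of 1.62 ± 0.34 (adjusted p = 0.106). Near Esr1, the estrogen receptor alpha gene, 5 of 20 regions are listed, all positive. At chr10:5722539-5729597 the mice had 739, 814 and 796 normalized reads in knockout refed livers, 486, 492 and 498 in control refed livers, 918, 978 and 718 in knockout fasted livers and 969.5, 732 and 817 in control fasted livers, with control refed livers below all others and an interaction of 0.62 ± 0.17 (adjusted p = 0.238).

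Near Mir582 all 6 listed regions of 20 were negative, the strongest at chr13:110386601-110392975 with 673, 645 and 674 normalized reads in knockout refed livers, 815, 817 and 941 in control refed livers, 1577, 1546 and 1664 in knockout fasted livers and 1398, 1434 and 1046 in control fasted livers. Its interaction was -0.68 ± 0.15 (adjusted p = 0.146), and it lay 274850 bases from the Mir582 start. Near Dynlrb2, a dynein light chain gene, 5 of 35 regions are listed, and near Farp1, a guanine nucleotide exchange factor gene, 7 of 25, of which 6 were positive and 1 negative.

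At the region just outside the Cyp4a10 promoter region, chr4:115182471-115184325, the values were 7.87, 0 and 10.8 normalized reads in knockout refed livers, 0 in all 3 control refed livers, 71.4, 103 and 87.7 in knockout fasted livers and 118, 80.9 and 117 in control fasted livers. Refed livers of both genotypes were near or at 0 there, and the interaction was 2.50 ± 1.01 (adjusted p = 0.45).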
